A study of Drosophila melanogaster with 15 samples.

Results

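The genes described here are members of the Drosophila piRNA pathway, a small RNA system best known from the germline, measured in sorted intestinal progenitor cells of the adult midgut. They are the 9 genes piwi, AGO3, aub, vas, zuc, spn-E, armi, krimp and shu, chosen by name and matched to the table of expression values by FlyBase identifier. The table lists 17558 genes, and 8 of the 9 members have a row in it. The current identifier of vas (FBgn0283442) matched none of its rows, so vas was not analysed here. Adult midguts on day 7 were digested, about 10000 cells labelled with green fluorescent protein were sorted by flow cytometry, and their RNA was amplified before sequencing, per the labels' protocols. The 15 libraries form 5 groups of 3. The control group (Ctrl) is wild type, and the 4 others are labelled ttk-RNAi (RNA interference against tramtrack), dpn OE (overexpression of deadpan), Nicd OE (the same for the Notch intracellular domain) and seq&Nicd OE (the same for sequoia together with Nicd). Neither the driver line nor the construct, the sex or any batch is given in the labels. Whether the 3 libraries of a group came from separate animals is not stated either, so the p-values reflect the spread between these samples alone, which may be technical.

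piRNAs are small RNAs bound by the Piwi clade of Argonaute proteins, and in fly gonads they guide the silencing of transposons. Single-stranded precursors are cut at the mitochondrial surface by the nuclease Zucchini, while in a perinuclear body called the nuage the Argonautes Aubergine and AGO3 amplify piRNAs by cutting each other's targets. The loaded Piwi protein enters the nucleus and silences transposons at the level of transcription, and the follicle cells of the ovary run a simpler pathway with Piwi alone. In most somatic tissues these genes are held at low levels.

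All values are FPKM (fragments per kilobase of exon, relative to the reads of the library), which are scaled to gene length, so levels of different genes can be set side by side. The estimated depth was 24.7 to 56.0 in units of 1e6 reads, with 51.1 to 56.0 in ttk-RNAi and at most 38.4 elsewhere. The share of reads assigned to genes was 33.7% to 48.9% in the 2 Nicd groups and 56.4% to 65.6% in the other groups. The targeted genes do not all follow the labels. The gene ttk was at 30.2 ± 17.0 FPKM in Ctrl and at 100 ± 12.9 FPKM in ttk-RNAi (SD, n = 3), higher where the label names RNA interference. For dpn the mean was 2.37 ± 0.803 FPKM in Ctrl against 6.09 ± 1.30 FPKM with the label dpn OE, but it was far higher elsewhere, at 290 ± 21.5 FPKM in ttk-RNAi and 225 ± 65.6 FPKM in seq&Nicd OE, and 59.3% of its exon bases are shared. The Notch gene N had 63.0 FPKM in Ctrl and less with the labels Nicd OE (21.8 FPKM) and seq&Nicd OE (18.3 FPKM), which carry only a part of the receptor. The gene seq was listed at 0 in every library, and as 100% of its exon bases are shared with other genes it checks no label. All group names are therefore used as labels only.

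Markers of the gut's cell types also moved between the groups. Of 12 progenitor markers all but esg matched the table, and each of these 11 had a mean of 1 FPKM or more in every group. In Nicd OE 8 of the 11 fell and 0 rose, with sums of 128 to 206 FPKM against 352 to 653 FPKM in Ctrl. In ttk-RNAi the 11 summed to 1173 to 1276 FPKM, but 4 rose and 3 fell, or 4 and 5 with median scaling. Their median difference of log2(FPKM + 1) in ttk-RNAi was -0.23, against 0.24 for all genes tested. Of 10 enteroendocrine markers 9 fell in dpn OE, 8 in Nicd OE, 6 in ttk-RNAi and 5 in seq&Nicd OE, where 2 rose, and they summed to 12842 to 62285 FPKM in Ctrl and to 964 to 7396 FPKM in the manipulated groups. With median scaling 5 of the 10 fell in Nicd OE. Of 10 enterocyte markers 6 fell and 1 rose in ttk-RNAi, where they summed to 86.4 to 122 FPKM against 164 to 574 FPKM in Ctrl. In dpn OE 4 of them rose and 0 fell, at 613 to 693 FPKM, but with median scaling 0 rose and 1 fell. Among all genes tested, 30.7% rose and 13.7% fell in ttk-RNAi, and 44.6% and 12.5% in dpn OE. The shares were 5.07% and 34.2% in Nicd OE and 13.3% and 21.2% in seq&Nicd OE. The enterocyte rises in dpn OE are near the share of all genes there. The 14 markers of muscle, haemocytes, fat body, trachea and glia, 10 of them below 1 FPKM in every library, summed to 18.9 to 20.2 FPKM in ttk-RNAi and 4.79 to 8.16 FPKM in Ctrl. The part of these differences in the members' results was not tested. In sorted bulk samples, fewer cells of a type and less RNA per cell cannot be told apart.

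Differences are of log2(FPKM + 1) with their standard errors, from limma fitted to all 15 libraries, and folds are ratios of group means. Adjusted p-values come from limma, with the Benjamini-Hochberg method applied to the 8209 genes that reached 1 FPKM in 3 or more libraries, and a gene was called at an adjusted p under 0.05. Of the 8 members with values, 7 passed this filter. The mean of piwi, spn-E, krimp and armi in Ctrl was below 1 FPKM. For piwi, spn-E and krimp no Ctrl library reached 1 FPKM, so they passed only through manipulated groups where they are high. Besides dpn OE, where it is high, armi reached 1 FPKM in Ctrl replicate 1, Nicd OE replicate 3 and seq&Nicd OE replicates 1 and 3. The member aub was below 1 FPKM in every library and did not pass.

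**Figure D1:**
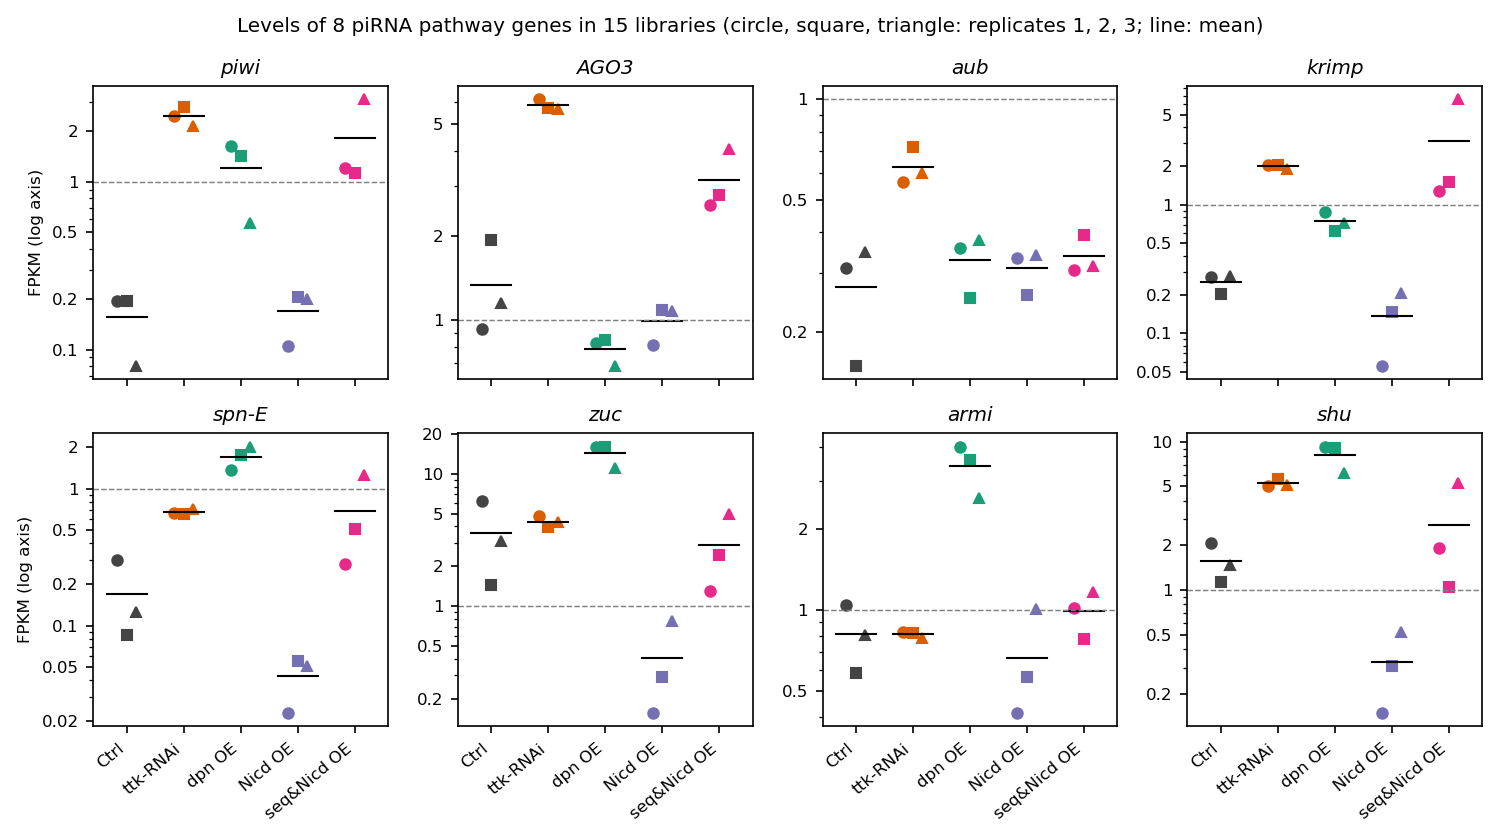
FPKM (log axis) of the 8 members with values in each of the 15 libraries, where circles, squares and triangles are replicates 1, 2 and 3, black lines are group means and the dashed line is 1 FPKM. The 3 ttk-RNAi libraries lie above all Ctrl libraries for piwi, AGO3, aub, krimp, spn-E and shu, and the 3 dpn OE libraries are the highest of all for zuc, armi, shu and spn-E. Of all genes tested, 30.7% were called up in ttk-RNAi and 44.6% in dpn OE relative to Ctrl. The share of all genes whose libraries do not overlap between groups was not determined.

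The Argonautes come first. The gene piwi (FBgn0004872, BDGP6.54 2L:10982205-10987420, minus strand), the nuclear effector of the pathway, was at 0.195, 0.194 and 0.0802 FPKM in Ctrl replicates 1, 2 and 3, which stands for 8 to 23 reads per library. In ttk-RNAi it was at 2.48, 2.81 and 2.15 FPKM, and in dpn OE at 1.64, 1.42 and 0.565 FPKM. The Nicd OE libraries held 0.105, 0.205 and 0.201 FPKM and those of seq&Nicd OE 1.22, 1.13 and 3.10 FPKM. All libraries of ttk-RNAi, dpn OE and seq&Nicd OE thus lay above all Ctrl and Nicd OE libraries, which overlapped each other. Relative to Ctrl, piwi rose 15.8-fold in ttk-RNAi (log2 difference 1.59 ± 0.23, adjusted p = 3.5e-05), 7.74-fold in dpn OE (0.90 ± 0.23, adjusted p = 0.0033) and 11.6-fold in seq&Nicd OE (1.22 ± 0.23, adjusted p = 0.00065). The rise in seq&Nicd OE was 7.51-fold without its replicate 3, which had the highest piwi of all libraries. In Nicd OE piwi did not pass the test (0.017 ± 0.23, adjusted p = 0.96), and seq&Nicd OE stood 10.7-fold above Nicd OE (1.20 ± 0.23, adjusted p = 0.00096), or 6.90-fold without replicate 3.

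AGO3 (FBgn0250816, 3L:23554593-23689640, plus strand), the cytoplasmic Argonaute that mostly carries sense piRNAs, was the most abundant of the 3 Argonautes in ttk-RNAi, seq&Nicd OE, Nicd OE and Ctrl. Its levels were 0.926, 1.93 and 1.15 FPKM in Ctrl and 6.13, 5.70 and 5.68 FPKM in ttk-RNAi. In dpn OE they were 0.824, 0.849 and 0.687 FPKM. Nicd OE had 0.811, 1.08 and 1.08 FPKM, and seq&Nicd OE 2.58, 2.79 and 4.09 FPKM. The ttk-RNAi and seq&Nicd OE libraries did not overlap with any other group, while all 3 dpn OE libraries lay below the lowest Ctrl library. AGO3 rose 4.37-fold in ttk-RNAi (log2 difference 1.57 ± 0.18, adjusted p = 3.7e-06) and 2.36-fold in seq&Nicd OE (0.84 ± 0.18, adjusted p = 0.0022), where the call ended in a fit of the 2 groups alone (adjusted p = 0.066). In dpn OE its mean was 0.787 against 1.33 FPKM in Ctrl and did not pass (-0.36 ± 0.18, adjusted p = 0.099). That difference did pass with median scaling (-0.69, adjusted p = 0.011), with quantile normalization (-0.50, adjusted p = 0.048) and without Ctrl replicate 1 (adjusted p = 0.039). Against Nicd OE, AGO3 was 3.18-fold higher in seq&Nicd OE (1.05 ± 0.18, adjusted p = 0.00046).

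The third Argonaute, aub (FBgn0000146, 2L:10997819-11001476, minus strand), which pairs with AGO3 in the amplification loop, stayed between 0.158 and 0.720 FPKM. It was at 0.311, 0.158 and 0.347 FPKM in Ctrl, at 0.564, 0.720 and 0.599 FPKM in ttk-RNAi and at 0.358, 0.252 and 0.377 FPKM in dpn OE. The libraries of Nicd OE had 0.333, 0.258 and 0.341 FPKM, those of seq&Nicd OE 0.307, 0.390 and 0.316 FPKM. The 3 ttk-RNAi libraries were the highest of all 15, and the other 4 groups overlapped. In a fit without the filter, over 15953 genes, aub rose 2.30-fold in ttk-RNAi (log2 difference 0.36 ± 0.070, adjusted p = 0.0014) and did not pass in the 4 other comparisons (adjusted p = 0.51 to 0.88).

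Of the factors that make and load piRNAs, zuc (FBgn0261266, 2L:11988735-11989882, minus strand), the endonuclease that cuts precursors, reached the highest level of any member. It was at 6.22, 1.46 and 3.11 FPKM in Ctrl, at 4.77, 3.95 and 4.31 FPKM in ttk-RNAi and at 16.0, 16.0 and 11.0 FPKM in dpn OE. Far lower values, 0.156, 0.291 and 0.767 FPKM, came from Nicd OE, and seq&Nicd OE had 1.30, 2.44 and 4.96 FPKM. The Ctrl libraries spread widely, yet all dpn OE libraries lay above them and all Nicd OE libraries below them. The gene zuc rose 3.98-fold in dpn OE (log2 difference 1.86 ± 0.36, adjusted p = 0.00059), or 6.27-fold without Ctrl replicate 1. In Nicd OE it fell 8.89-fold (-1.60 ± 0.36, adjusted p = 0.0033), or 5.65-fold without Ctrl replicate 1 and 16.1-fold without Nicd OE replicate 3. In seq&Nicd OE it was 7.17-fold above Nicd OE (1.39 ± 0.36, adjusted p = 0.012), but that call ended without seq&Nicd OE replicate 3 (4.62-fold, adjusted p = 0.076) and without Nicd OE replicate 1 (adjusted p = 0.059), and the fold was 13.0 without Nicd OE replicate 3. The levels of zuc in ttk-RNAi (0.35 ± 0.36, adjusted p = 0.45) and in seq&Nicd OE (-0.21 ± 0.36, adjusted p = 0.69) did not pass against Ctrl, with folds of 1.21 and 0.806, or 1.90 and 1.27 without Ctrl replicate 1, and 0.520 for seq&Nicd OE without its replicate 3.

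The gene shu (FBgn0003401, 2R:23841461-23843286, minus strand), a co-chaperone needed to load piRNAs onto the Argonautes, changed in the same comparisons as zuc and also in ttk-RNAi. It was at 2.08, 1.13 and 1.47 FPKM in Ctrl, at 5.01, 5.62 and 5.08 FPKM in ttk-RNAi and at 9.29, 9.09 and 6.19 FPKM in dpn OE. The level in Nicd OE was 0.148, 0.306 and 0.520 FPKM and that of seq&Nicd OE 1.93, 1.05 and 5.31 FPKM. No library of ttk-RNAi, dpn OE or Nicd OE overlapped with Ctrl, whereas those of seq&Nicd OE fell on both sides of it. shu rose 5.25-fold in dpn OE (log2 difference 1.84 ± 0.31, adjusted p = 0.00018) and 3.36-fold in ttk-RNAi (1.30 ± 0.31, adjusted p = 0.0031). It fell 4.80-fold in Nicd OE (-0.94 ± 0.31, adjusted p = 0.025), a call that ended without Ctrl replicate 1 or 3 or Nicd OE replicate 1 or 2 (adjusted p = 0.052 to 0.094). In seq&Nicd OE it stood 8.51-fold above Nicd OE (1.35 ± 0.31, adjusted p = 0.0048), or 4.60-fold without replicate 3, and did not pass against Ctrl (0.41 ± 0.31, adjusted p = 0.33; fold 1.77, or 0.957 without replicate 3).

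The helicase gene armi (FBgn0041164, 3L:3461317-3466314, plus strand) encodes the protein that hands precursors to Zucchini. Its values are uncertain, because 99.6% of its exon bases are shared in BDGP6.54 with CG46463 on the same strand, whose identifier matched no row of the table. They were 1.04, 0.585 and 0.809 FPKM in Ctrl, 0.824, 0.823 and 0.788 FPKM in ttk-RNAi and 4.02, 3.60 and 2.6 FPKM in dpn OE. The Nicd OE libraries had 0.414, 0.563 and 1.0 FPKM of armi and the seq&Nicd OE libraries 1.01, 0.781 and 1.16 FPKM. Only the dpn OE libraries stood apart from the rest, 4.20-fold above Ctrl (log2 difference 1.28 ± 0.16, adjusted p = 2.5e-05). In the 4 other comparisons armi did not pass (adjusted p = 0.29 to 0.98), and in ttk-RNAi it passed as lower with quantile normalization alone (-0.30, adjusted p = 0.047).

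The helicase and Tudor factors of the nuage follow. The gene spn-E (FBgn0003483, 3R:15837419-15844415, plus strand), a Tudor-domain helicase of the amplification loop, was at 0.301, 0.0851 and 0.125 FPKM in Ctrl, at 0.660, 0.657 and 0.710 FPKM in ttk-RNAi and at 1.36, 1.76 and 2.03 FPKM in dpn OE. Nicd OE had 0.0230, 0.0555 and 0.0502 FPKM, which stands for 3 to 8 reads per library, and seq&Nicd OE 0.281, 0.511 and 1.26 FPKM. The groups were ordered without overlap except that seq&Nicd OE overlapped with Ctrl and ttk-RNAi. spn-E rose 10.1-fold in dpn OE (log2 difference 1.21 ± 0.16, adjusted p = 3.5e-05), or 16.3-fold without Ctrl replicate 1. It rose 3.97-fold in ttk-RNAi (0.52 ± 0.16, adjusted p = 0.017), or 6.43-fold without Ctrl replicate 1, and that call ended with quantile normalization (adjusted p = 0.23) and without Ctrl replicate 2 (adjusted p = 0.052) or ttk-RNAi replicate 3 (adjusted p = 0.050).

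In seq&Nicd OE the rise of spn-E over Ctrl was 4.02-fold (0.49 ± 0.16, adjusted p = 0.032), or 2.33-fold without seq&Nicd OE replicate 3 and 6.51-fold without Ctrl replicate 1. It ended without seq&Nicd OE replicate 3 (adjusted p = 0.12) and without Ctrl replicate 2 (adjusted p = 0.074) or 3 (adjusted p = 0.080). Against Nicd OE, spn-E was 16.0-fold higher in seq&Nicd OE (0.65 ± 0.16, adjusted p = 0.0095), or 9.24-fold without seq&Nicd OE replicate 3. The lower level in Nicd OE than in Ctrl, 0.0429 against 0.170 FPKM, did not pass (-0.16 ± 0.16, adjusted p = 0.46), although no library overlapped; without Ctrl replicate 1 it was 2.45-fold lower.

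The gene krimp (FBgn0034098, 2R:16238103-16240722, minus strand), a Tudor-domain protein that brings AGO3 and Aubergine together, was at 0.276, 0.203 and 0.278 FPKM in Ctrl. It was at 2.02, 2.03 and 1.89 FPKM in ttk-RNAi and at 0.878, 0.627 and 0.716 FPKM in dpn OE. The Nicd OE libraries were at 0.0562, 0.145 and 0.207 FPKM and the seq&Nicd OE libraries at 1.27, 1.51 and 6.57 FPKM, where replicate 3 stood far above the others. All libraries of ttk-RNAi, dpn OE and seq&Nicd OE lay above Ctrl. krimp rose 7.84-fold in ttk-RNAi (log2 difference 1.25 ± 0.30, adjusted p = 0.0035) and 12.3-fold in seq&Nicd OE (1.49 ± 0.30, adjusted p = 0.0014), or 5.51-fold in seq&Nicd OE without replicate 3. It stood 22.9-fold above Nicd OE in seq&Nicd OE (1.63 ± 0.30, adjusted p = 0.00089), or 10.2-fold without replicate 3. Its mean in dpn OE, 0.740 FPKM, was 2.93-fold that of Ctrl and did not pass (0.47 ± 0.30, adjusted p = 0.20), but passed with a pseudocount of 0.1 (adjusted p = 0.030) and in a fit of the 2 groups alone (adjusted p = 0.0065).

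Read by comparison, 5 of the 7 tested members rose and 0 fell in ttk-RNAi, where 30.7% of all genes tested were called up and 13.7% down. In dpn OE 5 of 7 rose and 0 fell, against 44.6% and 12.5% of all genes. In Nicd OE 0 rose and 2 fell, against 5.07% and 34.2%. In seq&Nicd OE 4 rose and 0 fell relative to Ctrl, against 13.3% and 21.2%, and 6 rose and 0 fell relative to Nicd OE, against 15.8% and 3.85%. These counts cover members that passed the filter, and piwi, spn-E and krimp passed only through groups where they are high. The counts therefore describe the members and support no statement about the pathway as a whole. The 4 comparisons with Ctrl share its 3 libraries, and the last 2 share seq&Nicd OE.

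The median log2 difference of the members was 1.25 in ttk-RNAi and 1.21 in dpn OE. It was -0.16 in Nicd OE, and for seq&Nicd OE 0.49 relative to Ctrl and 1.20 relative to Nicd OE. Over all genes tested the medians were 0.24, 0.50, -0.40, -0.17 and 0.22 in the same order, so the libraries differ as a whole on the deposited scale. Median scaling changed the log2 difference of single genes by a median of -0.31, -0.58, 0.46, 0.14 and -0.33. It brought the medians of all genes to -0.046, -0.024, -0.029, -0.048 and -0.061. With it the share of rises among all called genes went from 69.2% to 49.8%, from 78.1% to 47.2%, from 12.9% to 49.6%, from 38.6% to 49.6% and from 80.4% to 50.4%. Under the same scaling the members' counts of rises stayed at 5, 5, 0, 4 and 6, with 2 falls in Nicd OE, and AGO3 was added as a fall in dpn OE. All genes called up were then 24.0%, 22.4%, 18.1%, 20% and 13.3% of those tested, and those called down 24.2%, 25.0%, 18.4%, 20.3% and 13.1%.

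Without any filter, 6 of the 8 members with values rose in ttk-RNAi and 5 in dpn OE, where 24.5% and 24.4% of 15953 genes were called up and 8.86% and 9.11% down. In Nicd OE zuc fell and no member rose (3.05% of all genes up, 18.0% down). In seq&Nicd OE 3 members rose relative to Ctrl (9.57% up, 11.8% down) and 6 relative to Nicd OE (10.9% up, 2.36% down).

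**Figure D2:**
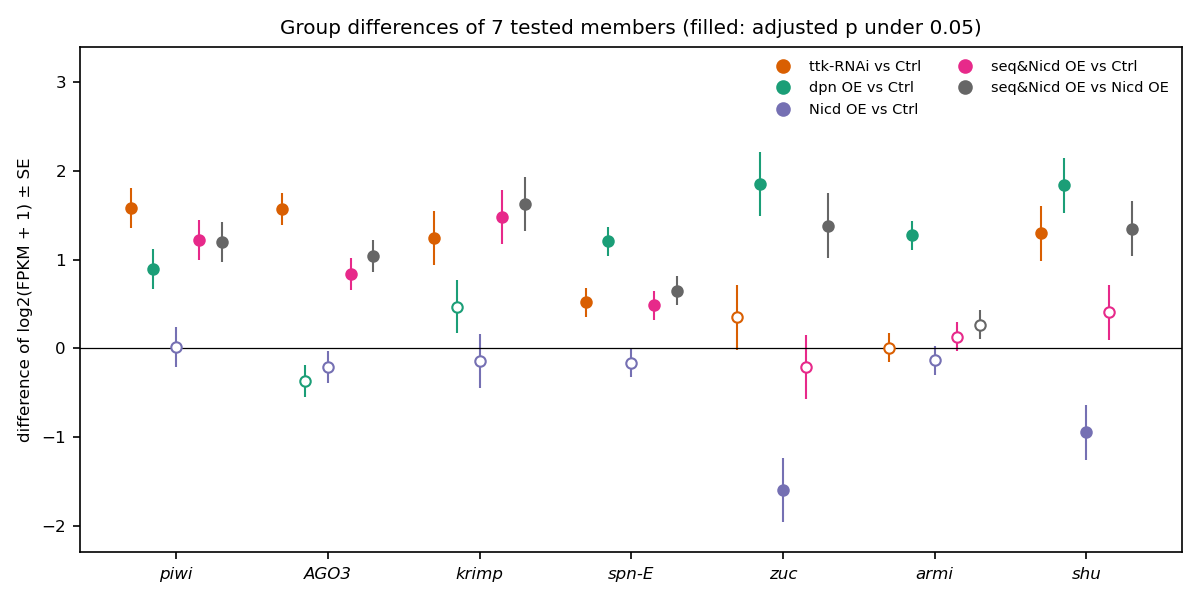
Difference of log2(FPKM + 1) with its standard error (bars) for the 7 tested members in 5 comparisons, coloured by comparison, with filled points for an adjusted p under 0.05. Points for ttk-RNAi, seq&Nicd OE and seq&Nicd OE relative to Nicd OE lie above 0 for piwi, AGO3, krimp and spn-E, while zuc and shu have their lowest points, at -1.60 and -0.94, in Nicd OE.

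The order of the 5 groups was not the same for all members. For piwi the mean was highest in ttk-RNAi, then in seq&Nicd OE (45.0% of all genes called between these 2 groups) and in dpn OE (70.9%). Neither step passed (adjusted p = 0.20 and 0.22), but the first did without seq&Nicd OE replicate 3 (adjusted p = 0.0074) and the second under 3 other scalings (adjusted p = 0.0021 to 0.024). The next step, from dpn OE down to Nicd OE (67.1%), passed (adjusted p = 0.0027). For AGO3 the order was ttk-RNAi, seq&Nicd OE, Ctrl, Nicd OE, dpn OE, and the step from ttk-RNAi to seq&Nicd OE (adjusted p = 0.0043) was lost with median scaling (adjusted p = 0.27), quantile normalization (adjusted p = 0.26) and equal assigned reads (adjusted p = 0.20). The last step of AGO3 did not pass (adjusted p = 0.47), but with median scaling AGO3 was lower in dpn OE than in Nicd OE (adjusted p = 0.0043). For krimp seq&Nicd OE and ttk-RNAi came first, with a step between them that did not pass (adjusted p = 0.55), but without seq&Nicd OE replicate 3 krimp was lower in seq&Nicd OE than in ttk-RNAi (adjusted p = 0.027).

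dpn OE came first for zuc, spn-E, armi and shu. It stood above the next group for zuc (ttk-RNAi, adjusted p = 0.0022), armi (seq&Nicd OE, adjusted p = 2.2e-05) and spn-E (seq&Nicd OE, adjusted p = 0.0011, lost with median scaling at 0.10), while that step of shu did not pass (ttk-RNAi, adjusted p = 0.14). Nicd OE came last for zuc, spn-E, armi, krimp and shu, and the step down to it passed for zuc (from seq&Nicd OE, adjusted p = 0.012) and shu (from Ctrl, adjusted p = 0.025).

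The direct comparison of dpn OE with ttk-RNAi, in which 38.8% of all genes were called up and 23.0% down, gave opposite signs for different members. AGO3 was 7.42-fold higher in ttk-RNAi (log2 difference of dpn OE minus ttk-RNAi -1.94 ± 0.18, adjusted p = 2.6e-07). In dpn OE armi was 4.20-fold (1.27 ± 0.16, adjusted p = 8.6e-06), zuc 3.30-fold (1.5 ± 0.36, adjusted p = 0.0022) and spn-E 2.54-fold higher (0.69 ± 0.16, adjusted p = 0.0020). These 4 calls held without each library of either group and under 3 other scalings. The genes piwi (-0.68 ± 0.23, adjusted p = 0.016) and krimp (-0.78 ± 0.30, adjusted p = 0.037) were lower in dpn OE, but for piwi the call ended without dpn OE replicate 3 (adjusted p = 0.095) or ttk-RNAi replicate 2 (adjusted p = 0.055), and for krimp it ended without any 1 of the 6 libraries (adjusted p = 0.057 to 0.091).

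**Figure D3:**
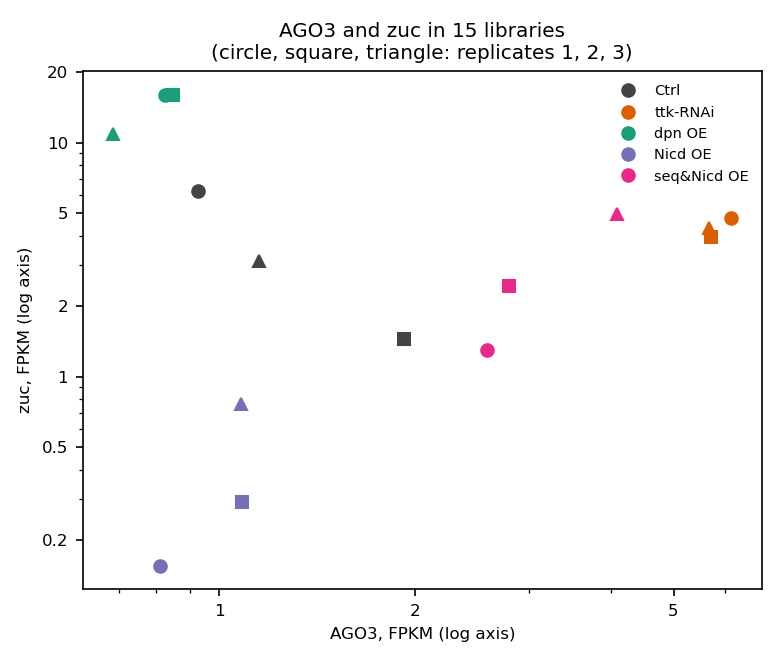
FPKM of AGO3 (horizontal, log axis) against FPKM of zuc (vertical, log axis), 1 point per library, coloured by group, with circles, squares and triangles for replicates 1, 2 and 3. The dpn OE libraries combine the highest zuc, 11.0 to 16.0 FPKM, with AGO3 of at most 0.849 FPKM, the ttk-RNAi libraries the highest AGO3, 5.68 to 6.13 FPKM, with zuc of 3.95 to 4.77 FPKM, and the Nicd OE libraries are low in both.

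Replicate 3 of seq&Nicd OE stood apart within its group. It was the highest of its 3 libraries for 7 of the 8 members, and also for 66.9% of all genes tested. These shares count ranks only, and the size of the excess was not compared between the members and all genes. Replicate 3 of Nicd OE was the highest of its group for 5 of the 8 members and for 75.8% of all genes. These were also the libraries with the highest share of assigned reads in their groups, 48.9% and 48.5%, and the part of that share in the members' levels was not tested. Without both libraries, piwi, krimp, AGO3 and shu stayed higher in seq&Nicd OE than in Nicd OE, whereas zuc (adjusted p = 0.056) and spn-E (adjusted p = 0.054) did not pass.

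The 7 tested members were also compared with each other across the 15 libraries. These correlations are Pearson's r of log2(FPKM + 1), descriptions over libraries that share group, depth and scaling. The pair piwi and krimp had r = 0.894, and AGO3 had r = 0.754 with piwi and 0.758 with krimp. High values also joined zuc with shu (r = 0.914), spn-E with shu (0.896), zuc with spn-E (0.879), zuc with armi (0.840), spn-E with armi (0.812) and armi with shu (0.736). The 2 sets were not separate. Between them r ran from -0.38 (AGO3 with armi) to 0.741 (piwi with shu), with 0.613 for piwi and spn-E, 0.559 for krimp and shu and 0.509 for krimp and spn-E, and -0.025 for AGO3 and zuc.

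Among 8037 other annotated genes that passed the filter, those most like piwi were CG14545 (r = 0.968), CG14636 (0.946) and CG3703 (0.940). For AGO3 they were stan (0.986), a cadherin of planar cell polarity, CG6765 (0.985) and kek1 (0.981), a transmembrane protein. For krimp they were CG10307 (0.938), CG16957 (0.936) and twit (0.931). The genes nearest to zuc were MED22 (0.979), a subunit of Mediator, Hat1 (0.978), a histone acetyltransferase, and Fdx1 (0.977), a ferredoxin. Nearest to shu were CG6479 (0.981), glu (0.976), a condensin subunit, and Naa40 (0.976), an N-terminal acetyltransferase. For spn-E they were pav (0.959), a kinesin of cytokinesis, CG7655 (0.959) and PrBP (0.958), and for armi EMC2B (0.979), c12.1 (0.978) and LeuRS-m (0.977).

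The rest of the piRNA pathway was followed in a list of 32 other genes, of which 30 matched the table and 21 were tested. In dpn OE 14 rose and 0 fell, where 44.6% of all genes tested rose and 12.5% fell. In ttk-RNAi 6 rose and 0 fell, where 30.7% of all genes rose, so the share of rises there is near the background. For Nicd OE 2 rose and 5 fell (5.07% and 34.2% of all genes), and for seq&Nicd OE 2 rose and 3 fell (13.3% and 21.2%). Relative to Nicd OE, 3 rose and 0 fell in seq&Nicd OE (15.8% and 3.85%). With median scaling these splits were 12 and 0, 5 and 4, 2 and 1, 3 and 3, and 2 and 2. The list's median log2 difference was 1.05, 0.31, -0.47, -0.25 and 0.17 in the same order, where the medians of all genes were 0.50, 0.24, -0.40, -0.17 and 0.22.

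One Tudor-domain gene, tej, whose protein works with Spindle-E in the nuage, rose in all 5 comparisons. Its mean was 0.368 ± 0.232 FPKM in Ctrl, 3.23 ± 0.431 FPKM in ttk-RNAi and 4.24 ± 0.413 FPKM in dpn OE (SD, n = 3). For Nicd OE it was 0.909 ± 0.112 FPKM and for seq&Nicd OE 2.87 ± 0.763 FPKM. Against Ctrl its folds were 8.77, 11.5, 2.47 and 7.81 in the same order of manipulated groups, or 13.3, 17.4, 3.74 and 11.8 without Ctrl replicate 1 (adjusted p = 2.0e-06, 2.3e-06, 0.040 and 1.0e-05), and seq&Nicd OE stood 3.16-fold above Nicd OE (adjusted p = 0.00060). The rise of tej in Nicd OE ended without Ctrl replicate 2 or 3 or Nicd OE replicate 1 or 2 (adjusted p = 0.054 to 0.15). The gene moon, which in the germline recruits the transcription machinery to piRNA clusters, was at 0.106 ± 0.0764 FPKM in Ctrl and 2.33 ± 0.225 in ttk-RNAi (log2 difference 1.59 ± 0.13, adjusted p = 1.0e-07). It was at 0.604 ± 0.350 FPKM in seq&Nicd OE (0.52 ± 0.13, adjusted p = 0.0078, lost in a fit of these 2 groups alone at 0.068) and was listed at 0 in all 3 Nicd OE libraries.

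In dpn OE the rises also took in Nbr, an exonuclease that trims piRNA ends, at 3.16 ± 0.547 against 0.359 ± 0.323 FPKM (8.80-fold, or 17.4-fold without Ctrl replicate 1; adjusted p = 2.3e-06). The mitochondrial acyltransferase gene mino was at 8.29 ± 1.28 against 2.13 ± 0.979 FPKM there (3.89-fold, adjusted p = 5.7e-05), and 42.4% of its exon bases are shared with other genes. The gene csul, which encodes the arginine methyltransferase that marks Piwi proteins for Tudor binding, was at 14.9 ± 1.18 against 5.55 ± 2.55 FPKM (2.68-fold, adjusted p = 0.0010). The precursor export factors Hel25E and thoc5 rose in both dpn OE and ttk-RNAi. Hel25E was at 24.6 ± 4.29 FPKM in Ctrl, 54.5 ± 3.18 in dpn OE and 45.1 ± 1.28 in ttk-RNAi (adjusted p = 0.00039 and 0.0036), and thoc5 at 1.03 ± 0.533, 3.23 ± 0.731 and 2.90 ± 0.174 FPKM (adjusted p = 0.0012 and 0.0031).

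Other genes of the pathway stayed near 0. Of the 30 genes, 8 were below 1 FPKM in every library. They include rhi, the chromatin reader that defines germline piRNA clusters, at no more than 0.0455 FPKM in any library. The others were cuff at up to 0.323 FPKM, Nxf3 at up to 0.166 FPKM, BoYb at up to 0.178 FPKM, SoYb at up to 0.430 FPKM, Boot at up to 0.434 FPKM, qin at up to 0.366 FPKM and fs(1)Yb, the core of the somatic processing body, at up to 0.148 FPKM. Nxf3 shares 59.9% of its exon bases with other genes, so its low level is uncertain.

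**Figure D4:**
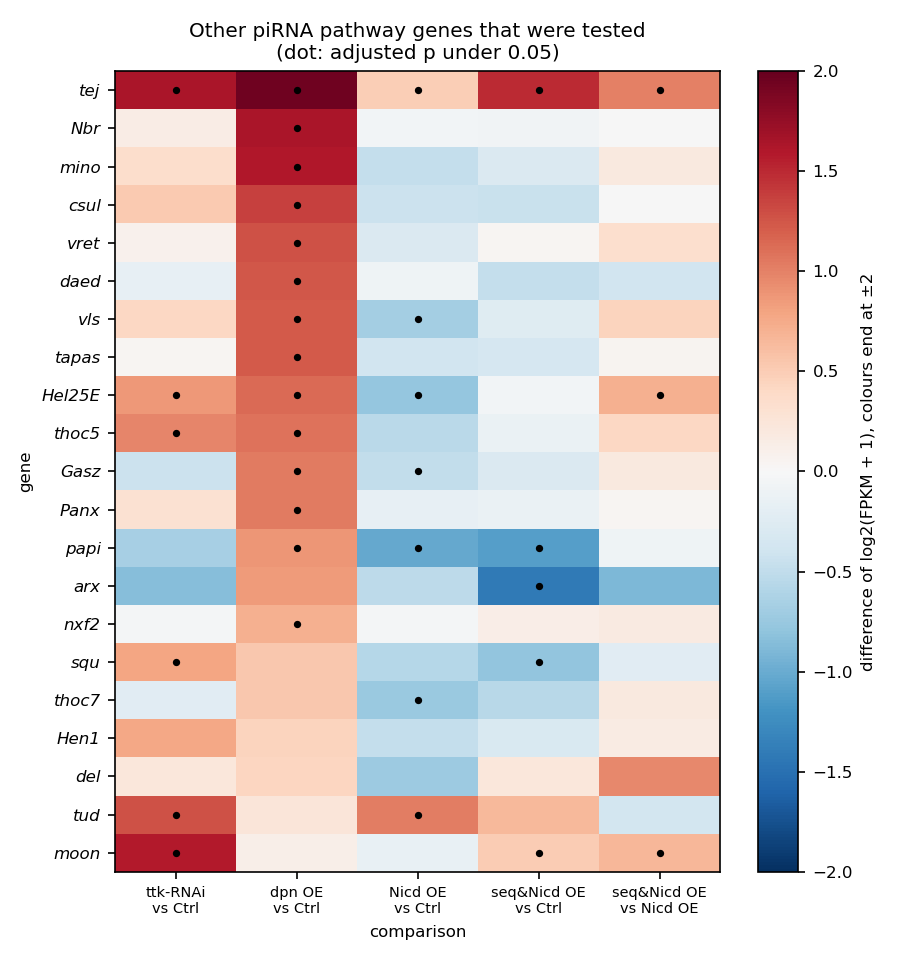
Difference of log2(FPKM + 1) (colour, ending at ±2) for the 21 tested genes of the rest of the piRNA pathway (vertical) in 5 comparisons (horizontal), with a dot for an adjusted p under 0.05. The dpn OE column holds 14 rises, in a comparison where 44.6% of all genes tested rose, and tej is the only gene with a rise in every column.

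Levels of germline, testis and gonad genes were set beside the members, since the gonads are the main site of the pathway in the fly. Of 36 germline and oocyte genes, 21 were below 1 FPKM in every library and 2 of these were at 0 in every library. The germline determinants nanos and osk reached at most 0.102 and 0.0623 FPKM, the gap junction gene zpg 0.129 FPKM and the differentiation factor bam 0.477 FPKM. The level of osk is uncertain, as 84.1% of its exon bases are shared. Of 20 testis genes 13, and of 12 markers of the somatic gonad 7, were below 1 FPKM in every library, and tj, the regulator of ovarian somatic cells, reached at most 0.109 FPKM. The germline list summed to 110 to 115 FPKM in ttk-RNAi and 80.0 to 88.3 FPKM in seq&Nicd OE, both within or below the 85.6 to 130 FPKM of Ctrl, and to 51.7 to 84.2 FPKM in Nicd OE and 67.0 to 81.8 FPKM in dpn OE. A few abundant genes weigh heavily in these sums. The genes twe, pum and mei-P26 reached 33.5, 28.0 and 27.2 FPKM, each in a Ctrl library, and grk 23.0 FPKM in ttk-RNAi. The somatic gonad list summed to 16.8 to 24.2 FPKM in ttk-RNAi, where Fcp3C alone reached 15.5 FPKM in replicate 3, and to 10.7 to 12.3 FPKM in Ctrl. Its range was 1.57 to 21.8 FPKM in seq&Nicd OE, 0.832 to 5.94 FPKM in Nicd OE and 2.14 to 2.78 FPKM in dpn OE, and the yolk protein genes Yp1, Yp2 and Yp3 peaked in seq&Nicd OE replicate 1, at 6.98, 3.30 and 10.2 FPKM. The testis list summed to 14.7 to 17.1 FPKM in ttk-RNAi and 4.34 to 7.72 FPKM in Ctrl, and to 7.80 to 9.46 FPKM in seq&Nicd OE, 3.53 to 8.30 FPKM in Nicd OE and 6.76 to 8.88 FPKM in dpn OE. The part of these lists' levels in the members' changes was not tested.

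Some single genes of these lists rose in groups where members rose, and others fell there. Of 15 tested germline and oocyte genes, 3 rose and 4 fell in ttk-RNAi (30.7% and 13.7% of all genes). In dpn OE 4 rose and 6 fell (44.6% and 12.5%), and in seq&Nicd OE 3 rose and 2 fell (13.3% and 21.2%). In dpn OE the list's median log2 difference was -0.51, against 0.50 for all genes. Falls included nclb in ttk-RNAi (log2 difference -0.73, adjusted p = 0.023) and c(2)M in dpn OE (-0.68, adjusted p = 0.041). In seq&Nicd OE pum fell (-0.87, adjusted p = 0.0021). All of these falls were lost in a fit of the 2 groups alone (adjusted p = 0.064 to 0.11). The genes named next are among the rises. The gene grk, the ligand that signals from the oocyte to the follicle cells, was at 2.50 ± 0.864 FPKM in Ctrl, 21.9 ± 1.19 in ttk-RNAi, 14.3 ± 0.702 in seq&Nicd OE, 2.94 ± 1.64 in Nicd OE and 1.27 ± 0.224 in dpn OE (SD, n = 3). It rose 8.76-fold in ttk-RNAi (adjusted p = 3.8e-07) and 5.71-fold in seq&Nicd OE (adjusted p = 1.0e-05), and stood 4.86-fold above Nicd OE in the latter (adjusted p = 2.2e-05). The testis tubulin gene betaTub85D was at 0.0437 ± 0.0227 FPKM in Ctrl, 3.17 ± 0.178 in ttk-RNAi (log2 difference 2.0 ± 0.094, adjusted p = 1.4e-10) and 0.741 ± 0.161 in seq&Nicd OE (0.73 ± 0.094, adjusted p = 2.1e-05). The recombinase gene spn-A rose in ttk-RNAi, at 7.28 ± 1.22 against 2.30 ± 0.528 FPKM (3.16-fold, adjusted p = 0.0017). The cyclin gene CycB3 rose in dpn OE, at 6.36 ± 1.68 against 1.53 ± 1.05 FPKM (4.15-fold, or 6.85-fold without Ctrl replicate 1; adjusted p = 0.00059), and in seq&Nicd OE, at 5.35 ± 2.18 FPKM (3.49-fold, or 5.76-fold without Ctrl replicate 1; adjusted p = 0.0036).

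**Figure D5:**
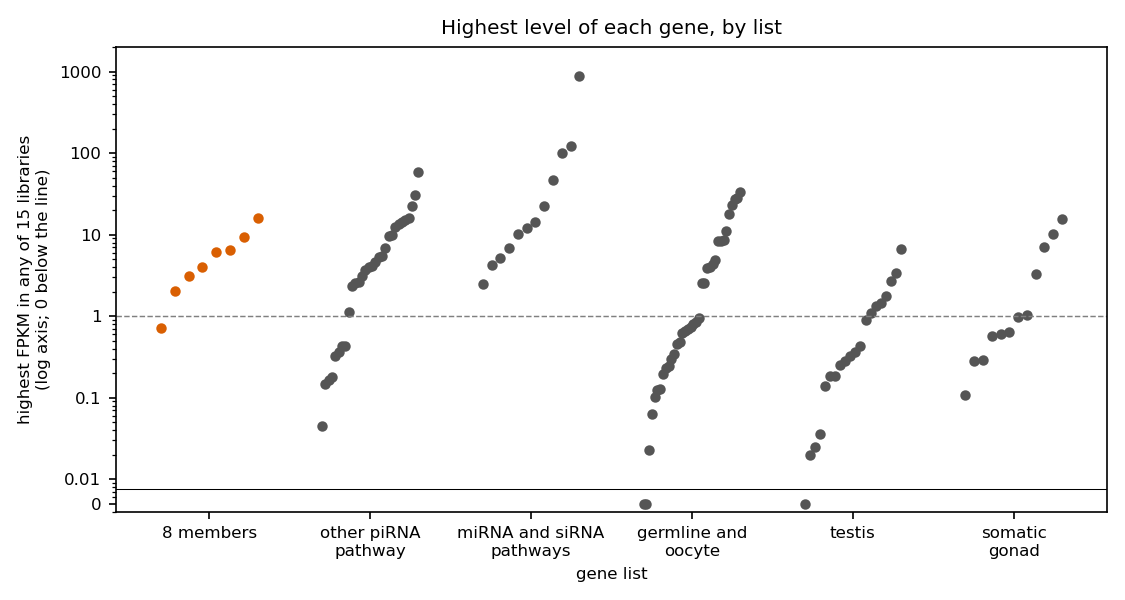
Highest FPKM reached in any of the 15 libraries (log axis, with genes listed at 0 below the line) for each gene of 6 lists, sorted within each list, with 1 FPKM dashed. The maxima of the 8 members run from 0.720 to 16.0 FPKM, whereas 21 of 36 germline and oocyte genes and 13 of 20 testis genes stay below 1 FPKM.

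By list, 15 of the 36 germline and oocyte genes were tested. Relative to Ctrl 3 rose and 4 fell in ttk-RNAi, 4 rose and 6 fell in dpn OE, 1 rose and 4 fell in Nicd OE, and 3 rose and 2 fell in seq&Nicd OE, where 3 rose and 1 fell relative to Nicd OE. Of all genes tested, 30.7%, 44.6%, 5.07%, 13.3% and 15.8% rose and 13.7%, 12.5%, 34.2%, 21.2% and 3.85% fell in these comparisons. With median scaling these splits were 3 and 6, 2 and 8, 2 and 1, 3 and 3, and 2 and 3, and the list's median log2 differences on the deposited scale were 0.075, -0.51, -0.54, -0.29 and 0.31, against 0.24, 0.50, -0.40, -0.17 and 0.22 for all genes. Of 6 tested testis genes 4 rose in ttk-RNAi and 3 in seq&Nicd OE relative to either group. In dpn OE 1 of them rose and 1 fell, and in Nicd OE 1 fell. With median scaling the rises in ttk-RNAi were 3, those in dpn OE 0 and those in seq&Nicd OE 3 relative to Ctrl and 2 relative to Nicd OE, and in Nicd OE 1 rose and 1 fell. Of 3 tested somatic gonad markers 0 rose, and 1 fell in each of Nicd OE, dpn OE and seq&Nicd OE relative to Ctrl.

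Of the Argonautes of the somatic small RNA pathways, AGO1 had a higher mean than each piRNA pathway Argonaute in every group. AGO2 had a higher mean than these in Ctrl and in dpn OE, the only groups for which it is given here. AGO1, the miRNA Argonaute, was at 90.1 ± 11.3 FPKM in Ctrl and 53.3 ± 4.69 to 74.9 ± 1.66 FPKM in the manipulated groups. AGO2, the siRNA Argonaute, was at 7.02 ± 4.52 FPKM in Ctrl and rose in dpn OE to 18.9 ± 3.03 FPKM (2.70-fold, adjusted p = 0.0028). Of 12 tested genes of these pathways, 2 rose and 1 fell in ttk-RNAi, 5 rose and 1 fell in dpn OE, 0 rose and 5 fell in Nicd OE, 1 rose and 4 fell in seq&Nicd OE, and 1 rose and 0 fell relative to Nicd OE. The rises in dpn OE and the falls in Nicd OE are near the shares of all genes, 44.6% and 34.2%. With median scaling the splits were 2 and 4, 1 and 1, 1 and 2, 2 and 5, and 1 and 1.

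Of 13 tested heterochromatin and silencing factors, some of which nuclear Piwi acts through, 5 rose and 1 fell in ttk-RNAi, 5 rose and 0 fell in dpn OE, 0 rose and 3 fell in Nicd OE, 2 rose and 1 fell in seq&Nicd OE, and 1 rose and 0 fell relative to Nicd OE. In these comparisons 30.7%, 44.6%, 5.07%, 13.3% and 15.8% of all genes tested rose and 13.7%, 12.5%, 34.2%, 21.2% and 3.85% fell. The median log2 differences of these factors, 0.45, 0.51, -0.29, -0.17 and 0.14, stood beside 0.24, 0.50, -0.40, -0.17 and 0.22 for all genes, and median scaling gave 5 and 2, 4 and 1, 2 and 1, 2 and 2, and 1 and 1. The dREAM and LINT complexes are known to hold germline genes silent in somatic cells. Of their 12 tested genes 6 rose in dpn OE and 5 in ttk-RNAi, with 0 falls in both, where 44.6% and 30.7% of all genes rose, and their median log2 differences were 0.74 and 0.46 against 0.50 and 0.24 for all genes. In Nicd OE 1 rose and 2 fell (5.07% and 34.2% of all genes), while 1 rose and 1 fell in seq&Nicd OE (13.3% and 21.2%). Relative to Nicd OE, 1 rose and 0 fell in seq&Nicd OE (15.8% and 3.85%). With median scaling the splits were 4 and 1 in dpn OE, 3 and 3 in ttk-RNAi, 2 and 1 in Nicd OE and 2 and 2 in seq&Nicd OE, and relative to Nicd OE 0 rose and 1 fell.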

How the data were processed

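RNA-seq of sorted midgut progenitor cells gave 15 libraries in 5 groups of 3, grouped by title. The authors deposited 1 table of FPKM per gene and library. The submitters' processing notes name STAR 2.6.1a, the build BDGP6 and DESeq2, with no role given. How reads were counted, and whether by strand, is not given in the sources used here. Symbols, exon lengths and coordinates came from BDGP6.54, in which 17252 of 17558 identifiers have a symbol. No sequence is shown, since no reference sequence was used here.

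Values of genes with up to 20 reads were whole numbers of reads within 0.02 reads in 97.8% to 98.3% of cases, which gave the depth. Such read numbers describe counting error alone: the RNA was amplified, and without molecular identifiers 2 reads may stem from 1 molecule. Of the 8 members, 7 gave whole reads in all 15 libraries and armi did not.

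log2(FPKM + 1) was fitted with limma 3.58.1 in R 4.3.3 (5 group means, 10 residual degrees of freedom, eBayes with a variance trend, two-sided, Benjamini-Hochberg adjustment). Genes with 1 FPKM or more in 3 or more libraries were tested. The script recovered most changes put into simulated normal noise. Those changes were larger than any member's difference in the 5 comparisons of the main fit. Recovery of smaller changes, or at low read numbers, was not tested. Alternatives were pseudocounts of 0.1 and 0.5, no filter or one of 0.25 FPKM, 3 other scalings, the 2 groups alone, a replicate block, and each library left out. A scale that makes assigned reads equal is called equal assigned reads. The labels do not say whether replicate numbers pair libraries across groups. Between seq&Nicd OE and Nicd OE, deviations from the group means correlated over 0.1 in all 3 same-numbered pairs (r = 0.20, 0.21 and 0.43). Replicate 3 had the highest share of assigned reads in both groups, and its part in these correlations was not tested. The main fit has no block, and the blocked fit called the same number of members in this comparison. No other comparison had correlations over 0.1 in all 3 pairs.

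Members and lists were chosen with earlier results of these data known. From other lists, genes called in at least 3 of the 5 comparisons and up to 3 more per direction and comparison by size could be named. Genes named only for their low level, their fall or their role as markers (rhi, nanos, tj, AGO2 and the like) were chosen after their values were seen.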

Additional observations from a re-analysis of the deposited data

How the results depend on the processing

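Of 22 member calls in the 5 comparisons, 16 were kept under every alternative run, 6 were lost under at least 1, and none of the 22 changed direction. The count of members called in Nicd OE relative to Ctrl was 2, and 1 without a filter and with equal assigned reads, where shu was lost (adjusted p = 0.056 and 0.066). Relative to Ctrl, seq&Nicd OE had 4 calls, and 2 when only these groups were fitted, where AGO3 and spn-E were lost. Leaving out 1 library gave 4 to 5 calls for ttk-RNAi, 5 to 6 for dpn OE and 1 to 2 for Nicd OE. For seq&Nicd OE it gave 3 to 4 relative to Ctrl and 5 to 6 relative to Nicd OE. With the replicate block the counts were 5, 5, 2, 4 and 6, as without it, and 6 when only the 2 Nicd groups were fitted.

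Differences that had not passed changed sign as follows. For zuc in ttk-RNAi it ran from -0.031 (without Ctrl replicate 2) to 0.75 when libraries were left out. For armi in ttk-RNAi it was -0.15 with median scaling, -0.30 with quantile normalization, -0.037 with equal assigned reads and from -0.085 (without Ctrl replicate 2) to 0.098 when libraries were left out. For piwi in Nicd OE it was -0.031 without Ctrl replicate 3, -0.0043 without Nicd OE replicate 2 and -0.0016 without Nicd OE replicate 3 or without replicate 3 of both Nicd groups, and up to 0.058 without Nicd OE replicate 1. For AGO3 in Nicd OE it was 0.094, 0.17 and 0.13, and for armi 0.12, 0.19 and 0.12, with median, quantile and equal assigned scaling. For zuc in seq&Nicd OE it was 0.11 with equal assigned reads and ran from -0.59 to 0.18 when libraries were left out (0.18 without Ctrl replicate 1, 0.12 without seq&Nicd OE replicate 1), and for shu -0.044 without seq&Nicd OE replicate 3 or both replicates 3, and up to 0.77 without seq&Nicd OE replicate 2. For armi relative to Nicd OE it was -0.030 with quantile normalization.

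Over all genes, calls fell from 3227 to 1512 in Nicd OE and from 2832 to 1408 in seq&Nicd OE when only these groups and Ctrl were fitted, and rose from 1611 to 2502 relative to Nicd OE with the block in the 2 Nicd groups. The cause of these moves was not tested. Leaving out replicate 3 of both Nicd groups, the fit of the 2 Nicd groups with a block, and the alternatives for pairs of manipulated groups were chosen after seeing the data. At this depth spn-E and krimp rest on 18 and 32 reads in all 3 Nicd OE libraries together, which limits their folds there.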
